A study of Mus musculus with 24 samples.

Results

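The genes described here are 8 transcription factors of the enteric neural crest, Sox10, Foxd3, Phox2a, Tlx2, Hand2, Zeb2, Tfap2a and Tfap2b, taken by gene symbol from tables that list up to 26260 genes. All 8 were present in each of the 4 deposited tables. RNA was taken from the whole gut of single mouse embryos at day 12.5 of development, with 6 guts (3 female, 3 male) of each of 4 genotypes: Ret-Sema3d double null, Ret null, Sema3d null and wildtype. All nulls are homozygous, the strain background of every group mixes C57BL/6, 129/Sv and C3H, and the deposited fits set each null against wildtype and ask whether the losses of Ret, the receptor for GDNF-family ligands, and Sema3d, a secreted guidance cue, interact. The labels name no Cre or driver, and the RNA is that of all gut cells, so no value is specific to crest cells.

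The enteric nervous system forms from neural crest cells that enter the foregut, migrate along it and become neurons or glia. Sox10 and Foxd3 keep crest cells in a progenitor state, and Sox10 also directs glia. Phox2a and Tlx2 are homeodomain factors of autonomic neurons. Hand2, a basic helix-loop-helix factor, and Zeb2, a zinc-finger homeodomain factor whose human form is mutated in Mowat-Wilson syndrome, act in enteric crest cells and are also made by mesenchyme. Tfap2a and Tfap2b are AP-2 factors of early crest and of sympathetic neurons. From this background Sox10, Foxd3, Phox2a and Tlx2 were classed as crest-only factors, and Hand2 and Zeb2 as factors also made in gut mesenchyme. The AP-2 factors were left without a class. Earlier results of these data were known when the members and lists were chosen, so the classes are not an independent prediction. On GRCm38, Sox10 lies at chr15:79154908-79165240, Zeb2 at chr2:44983632-45117395 and Tfap2a at chr13:40715302-40738376, all on the minus strand.

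The starts of 4 of these genes are shown, those with 1 RefSeq start each. Foxd3 and Phox2a are crest-only factors, Tfap2b is an AP-2 factor and Hand2 is also made in mesenchyme. A shown window need not stand for its class. The sequences are RefSeq's, build GRCm38.p6, each running 5′ to 3′ on the plus strand for 300 bases, from 250 before to 50 after the annotated start: chr4:99656049-99656348 for Foxd3, chr7:101818063-101818362 for Phox2a, chr1:19211804-19212103 for Tfap2b and chr8:57320733-57321032 for Hand2. Capitals mark CANNTG, the E-box read by basic helix-loop-helix factors such as Hand2, and TAATTA, a homeodomain core.
Foxd3: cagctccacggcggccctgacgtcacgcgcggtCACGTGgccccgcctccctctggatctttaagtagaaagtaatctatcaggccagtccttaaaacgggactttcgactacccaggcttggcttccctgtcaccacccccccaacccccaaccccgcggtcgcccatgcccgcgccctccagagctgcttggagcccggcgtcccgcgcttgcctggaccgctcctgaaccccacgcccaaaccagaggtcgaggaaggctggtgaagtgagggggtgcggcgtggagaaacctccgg
Phox2a: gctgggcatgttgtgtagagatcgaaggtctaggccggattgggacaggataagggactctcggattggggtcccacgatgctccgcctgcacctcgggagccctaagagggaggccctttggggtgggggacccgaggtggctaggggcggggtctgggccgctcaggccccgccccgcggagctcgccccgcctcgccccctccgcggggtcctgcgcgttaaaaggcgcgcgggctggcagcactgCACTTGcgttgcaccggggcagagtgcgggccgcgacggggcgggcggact
Tfap2b: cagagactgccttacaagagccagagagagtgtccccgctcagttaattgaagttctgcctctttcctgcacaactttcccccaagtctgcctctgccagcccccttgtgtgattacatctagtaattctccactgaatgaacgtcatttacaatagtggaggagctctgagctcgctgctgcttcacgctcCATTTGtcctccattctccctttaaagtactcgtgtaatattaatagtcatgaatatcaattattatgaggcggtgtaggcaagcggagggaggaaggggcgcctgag
Hand2: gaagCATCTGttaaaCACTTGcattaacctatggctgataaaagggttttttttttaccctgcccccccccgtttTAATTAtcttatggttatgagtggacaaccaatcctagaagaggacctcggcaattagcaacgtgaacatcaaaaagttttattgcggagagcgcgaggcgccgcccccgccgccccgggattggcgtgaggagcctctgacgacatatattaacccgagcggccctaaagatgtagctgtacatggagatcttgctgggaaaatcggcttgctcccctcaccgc
Both strands were searched for these letters. The search also covered ACAAAG as the core read by SOX factors. For AP-2 factors the palindrome GCCNNNGGC was used, and in the 4 windows no match overlapped another. The Foxd3, Phox2a and Tfap2b windows held 1 E-box each, and the Hand2 window held 2 E-boxes and 1 TAATTA. No match to ACAAAG or GCCNNNGGC lay in these 4 windows, which says only that those letters are not there. The windows of Zeb2, with 4 starts, and Tfap2a, with 2, are not shown and held no E-box. ACAAAG and GCCNNNGGC each lay in some Zeb2 windows but not all, and TAATTA in 1 of the Tfap2a windows. Of 32851 RefSeq promoter windows of that length, 72.3% held an E-box, 5.29% TAATTA, 18.7% ACAAAG and 16.6% GCCNNNGGC. The shown windows differed in base composition, with a GC share of 65.7% for Foxd3, 71.3% for Phox2a, 48.3% for Tfap2b and 50.3% for Hand2.

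The deposited tables hold the authors' model fits per gene and no value per gut. Levels below are therefore fitted levels in normalised counts, and neither the spread over single guts nor sequencing depth can be read from them. The error after each log2 change is derived from the authors' likelihood-ratio test, and a gene was called at an adjusted p below 0.05. The targeted gene Ret was at 0.0758% of its wildtype level in double null guts and 0.310% in Ret null guts in the 24-gut fit, and Sema3d was at 48.5% in double null and 47.7% in Sema3d null guts. The labelled tissue carried its markers: the 5 enteric neuron markers summed to a fitted level of 332 in Ret null and 2156 in wildtype guts, and the 5 gut epithelium markers to 4613 in Ret null and 4485 in wildtype guts. Each p-value tests a genotype or interaction term of the authors' model over these guts, and the labels do not say which guts were littermates.

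Wildtype guts made these factors at very different levels. Per kilobase of annotated exon, the 24-gut fit gave Hand2 the highest wildtype level, 914 normalised counts per kb, followed by Sox10 at 147, Tlx2 at 85.3, Zeb2 at 84.8, Foxd3 at 60.4 and Phox2a at 53.3. Tfap2a and Tfap2b were lowest, at 5.51 and 3.45 normalised counts per kb. The order of Tlx2 and Zeb2, which lay side by side, cannot be tested without values per gut. In Ret null guts the order per kilobase changed. Hand2 stood at 753 and Zeb2 at 59.8 normalised counts per kb, above Sox10 at 13.1, Foxd3 at 4.51, Phox2a at 2.95 and Tlx2 at 1.39. The place of Zeb2 in wildtype guts depends on scaling by exon length. Without scaling, Zeb2 had 1692 normalised counts in wildtype guts, above Sox10 at 450 and Tlx2 at 135.

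**Figure D1:**
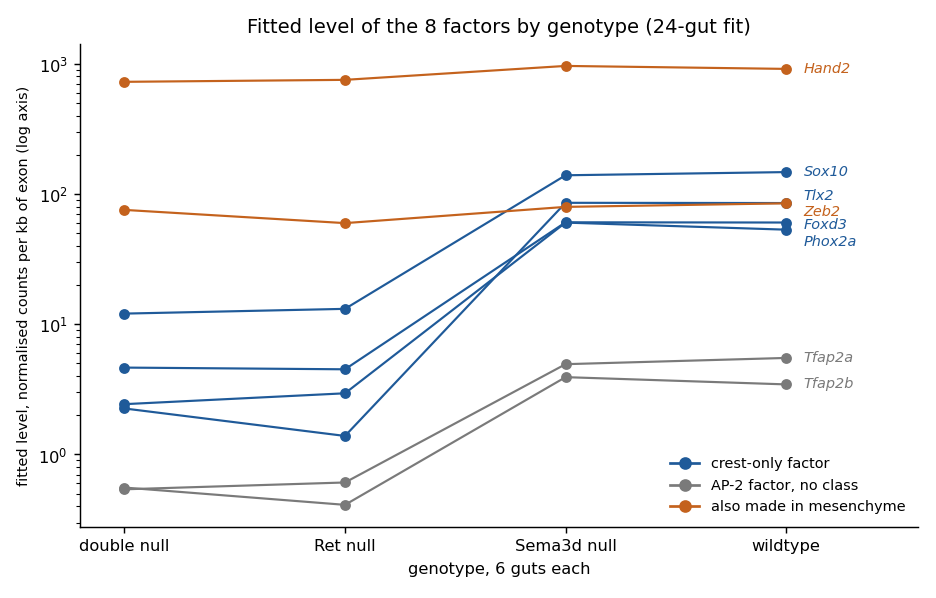
Fitted level of each factor in normalised counts per kilobase of exon (log axis) in double null, Ret null, Sema3d null and wildtype guts, 1 point per genotype from the fit over 24 guts (6 per genotype, no error bars, as the tables give none for a level). The lines of the crest-only and AP-2 factors drop in both genotypes that lack Ret, while Hand2 and Zeb2 keep between 70.5 and 89.0% of their wildtype level there.

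The comparison of Ret null with wildtype guts shows these genes where Ret was the only targeted gene. Sema3d RNA was itself lower in Ret null guts, at 83.1% of its wildtype level (adjusted p 0.00088 in the authors' deposited table). All 8 factors fell, Tlx2 to 1.62% of its wildtype level and Hand2 to 82.4%. Of 24602 genes tested, 2.27% were called lower and 0.386% higher in the authors' deposited table. The median log2 change of the 8 factors was -3.35, against 0.00086 over all genes. Fewer cells of a type and less RNA per cell cannot be told apart in RNA from a whole gut.

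Sox10 had a fitted level of 38.9 normalised counts in Ret null guts and 441 in wildtype guts. Its log2 change was -3.50 ± 0.21 in the authors' deposited table (adjusted p 3.10e-57), which leaves 8.83% of the wildtype level (95% interval 6.60 to 11.8%). Foxd3, the forkhead factor of crest progenitors, had 10.04 normalised counts in Ret null and 137 in wildtype guts, and 7.30% remained (5.21 to 10.2%; adjusted p 1.66e-49 in the authors' deposited table). These progenitor factors thus kept shares whose intervals overlap.

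The homeodomain factors of neurons had lower fitted shares, although the Phox2a interval overlaps those of Sox10 and Foxd3. Phox2a had 5.83 normalised counts in Ret null and 106 in wildtype guts, so that 5.50% remained (4.03 to 7.51%; adjusted p 1.65e-71 in the authors' deposited table). Tlx2 had 2.14 normalised counts in Ret null and 132 in wildtype guts, and 1.62% remained (1.10 to 2.40%). Its log2 change of -5.94 ± 0.29 (adjusted p 1.66e-92 in the authors' deposited table) was the 7th steepest of 12235 genes whose level reached 50 normalised counts in either genotype and whose fit was bounded. The Tlx2 interval lies below those of Sox10, Foxd3 and Phox2a. It rests on a fitted level of 2.14 normalised counts in Ret null guts, and the width of such intervals was not tested for changes this large. Tlx2 lies on the same chromosome as the targeted gene, 35.1 Mb away (chromosome 6, 83068324 to 83070293, minus strand, GRCm38).

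The AP-2 factors had the lowest wildtype levels of the 8, and their intervals overlap that of Sox10. Tfap2a had 2.90 normalised counts in Ret null and 26.5 in wildtype guts, with 10.9% remaining (6.40 to 18.7%; adjusted p 9.50e-14 in the authors' deposited table). Tfap2b had 2.54 normalised counts in Ret null and 21.8 in wildtype guts, with 11.7% remaining (6.34 to 21.4%; adjusted p 5.92e-10 in the authors' deposited table). Krt5, Krt14, Krt15, Trp63 and Grhl3 mark the surface ectoderm, another source of AP-2 RNA. Their fitted levels in wildtype guts were low, from 7.99 to 48.1 normalised counts. They summed to 126 normalised counts in Ret null and 159 in wildtype guts. The authors' deposited table called 0 of 5, where 2.27% of all genes were called lower and 0.386% higher. An unadjusted p under 0.05 was found there for 1 of 5, beside 8.43% of all genes. The part of surface ectoderm in the AP-2 values was not tested.

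The factors also made in mesenchyme kept most of their RNA. Hand2 had 1728 normalised counts in Ret null and 2098 in wildtype guts, a log2 change of -0.28 ± 0.06 with 82.4% remaining (76.2 to 89.0%; adjusted p 7.98e-05 in the authors' deposited table). Zeb2 had 1164 normalised counts in Ret null and 1652 in wildtype guts, a log2 change of -0.51 ± 0.07 with 70.5% remaining (64.1 to 77.5%; adjusted p 7.23e-11 in the authors' deposited table). Their intervals lie above those of every crest-only and AP-2 factor. The crest-only factors kept between 1.62 and 8.83% of their wildtype level with a median of 6.40%, and the mesenchyme pair a median of 76.4%, beside 100.6% over 12235 genes at a level of at least 50. The classes hold 4 and 2 genes of the same guts, so no test between them was made.

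The drops in absolute level had another order than the shares. Per kilobase of exon, the fitted level fell by 157 normalised counts for Hand2 and by 132 for Sox10 between Ret null and wildtype guts. The same quantity was 81.8 for Tlx2, 54.8 for Foxd3, 49.2 for Phox2a and 24.5 for Zeb2. It was 4.82 for Tfap2a and 3.03 for Tfap2b, the factors with the lowest wildtype levels. Hand2 thus had the largest fitted drop per length of the 8 while keeping the largest share, and no interval was derived for these drops. Without scaling by exon length the order was another. The fitted level then fell by 488 normalised counts for Zeb2, 402 for Sox10 and 370 for Hand2.

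**Figure D2:**
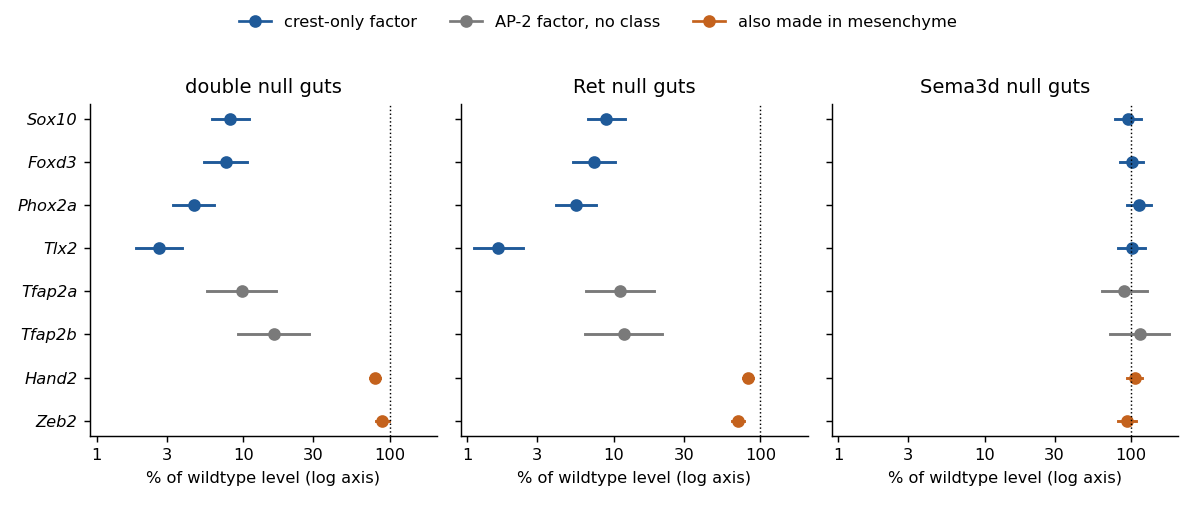
Share of the wildtype level left in double null, Ret null and Sema3d null guts (percent, log axis) for each factor, with its 95% interval from the derived error; 6 null and 6 wildtype guts per panel, and the dotted line marks 100%. In double null and Ret null guts the crest-only and AP-2 factors lie between 1.62 and 16.1%, and Hand2 and Zeb2 between 70.5 and 89.1%; in Sema3d null guts every interval spans 100%.

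Without both Ret and Sema3d, 7 of the 8 factors fell against wildtype, Zeb2 being the exception. Of 24663 genes, 1.87% were called lower and 0.231% higher in the authors' deposited table. The wildtype guts are those of the Ret null comparison, so the values are given side by side. Sox10 stood at 36.2 normalised counts in double null and 442 in wildtype guts, with 8.19% remaining (6.08 to 11.03%). Foxd3 kept 7.58% (5.44 to 10.6%), Phox2a 4.58% (3.32 to 6.31%) and Tlx2 2.67% (1.87 to 3.81%). Tlx2 again had the smallest fitted share of the 8, although its interval here overlaps that of Phox2a.

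Tfap2a kept 9.80% (5.70 to 16.9%) and Tfap2b 16.1% (9.15 to 28.3%) in double null guts. The largest adjusted p among these 6 factors was 2.99e-08, for Tfap2b, in the authors' deposited table. Hand2 had 1683 normalised counts in double null and 2114 in wildtype guts, a log2 change of -0.33 ± 0.06 with 79.6% remaining (73.9 to 85.8%; adjusted p 2.54e-07 in the authors' deposited table). Zeb2 had 1482 normalised counts in double null and 1664 in wildtype guts. Its log2 change of -0.17 ± 0.08 (89.1% remaining, 80.4 to 98.7%) had an unadjusted p of 0.0269 and an adjusted p of 0.550 in the authors' deposited table.

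In the comparison of Sema3d null with wildtype guts none of the 8 factors passed the test. The authors' likelihood-ratio test in DESeq called 0 of 8, and 0 of 8 had an unadjusted p under 0.05, where 0.0404% of 24747 genes were called in either direction and 4.53% had such a p in the authors' deposited table. Sox10 had 431 normalised counts in Sema3d null and 455 in wildtype guts, or 94.7% (76.9 to 117%). Tlx2 stood at 100.4% (80.6 to 125%), Foxd3 at 100.5% (83.8 to 121%) and Phox2a at 113% (92.9 to 137%). Hand2 stood at 106% (93.7 to 119%) and Zeb2 at 94.1% (81.6 to 108%). The AP-2 factors allow a wider range, 89.7% (63.1 to 128%) for Tfap2a and 114% (71.2 to 182%) for Tfap2b. Each lower bound lay above the share the same factor kept in Ret null guts. These shares are not corrected for exon length. Among genes at a level of at least 50, the median log2 change in Sema3d null guts was 0.11 in the decile of shortest exons and -0.10 in the longest. With the decile median taken off, the log2 change was -0.11 for Tlx2 and 0.11 for Phox2a, and 0 of the 8 factors were called.

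The interaction term of the 24-gut fit asks whether the double null differs from the sum of both single effects. It was called for 0 of 8 factors by the authors' likelihood-ratio test in DESeq, with 1 at an unadjusted p under 0.05, where 0.164% of 26258 genes were called in either direction and 6.79% had such a p in the authors' deposited table. For Sox10 the coefficient was -0.04 ± 0.31 on the log2 scale, with a 95% interval of -0.65 to 0.57. For Foxd3 it was 0.04 ± 0.34, for Phox2a -0.46 ± 0.43 and for Tlx2 0.69 ± 0.58. The AP-2 intervals run from -1.20 to 1.17 for Tfap2a and from -1.17 to 1.68 for Tfap2b, and Hand2 had -0.13 ± 0.11. In this fit Tlx2 had a level of 3.57 normalised counts in double null and 2.20 in Ret null guts, and no deposited test compares these groups directly.

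Zeb2 had the smallest interaction p of the 8. In the 24-gut fit its level was 1506 normalised counts in double null, 1192 in Ret null, 1589 in Sema3d null and 1692 in wildtype guts. The sum of the single effects would leave 66.2% of the wildtype level in double null guts, and 89.0% was fitted. The coefficient was 0.43 ± 0.13 on the log2 scale (95% interval 0.17 to 0.68), with an unadjusted p of 0.00103 and an adjusted p of 0.186 in the authors' deposited table, so it did not pass. Counting Zeb2, 145 genes had an interaction p as small.

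Exon length and markers of other cell types were set beside the Zeb2 values. Its annotated exons span 19942 bases in all, in the longest decile of genes, and the interaction coefficient was higher in genes with longer exons, with a median of 0.15 in that decile and -0.16 in the shortest. With the decile median taken off, the Zeb2 coefficient was 0.27 and its adjusted p 0.952. The same step left the Ret null change of Zeb2 at -0.47 (adjusted p 2.03e-09). Macrophages and endothelium also make Zeb2. The macrophage markers Csf1r, Cx3cr1, Adgre1 and Ptprc summed to 559 normalised counts in Ret null and 684 in wildtype guts, and to 656 in double null and 689 in wildtype guts. Their log2 changes in Ret null guts ran from -0.36 to -0.25, with 0 of 4 called and 3 of 4 at an unadjusted p under 0.05 in the authors' deposited table. Over all genes in that comparison 2.27% were called lower, 0.386% were called higher and 8.43% had such an unadjusted p. Of the endothelial markers Pecam1, Cdh5, Kdr, Tek and Tie1, the authors' deposited tables call 4 of 5 higher in double null guts, where 0.231% of all genes were, and 0 of 5 in Ret null guts (0 of 5 at an unadjusted p under 0.05), where 0.386% were. They summed to 5523 normalised counts in double null and 4631 in wildtype guts, and to 4584 in Ret null and 4597 in wildtype guts. The part of these cell types in the Zeb2 values was not tested.

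**Figure D3:**
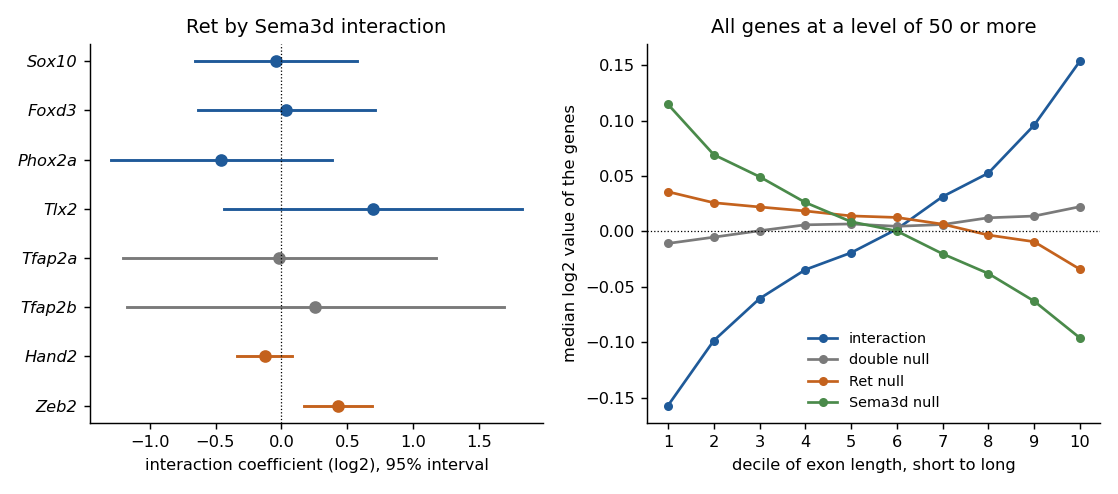
Left, the Ret by Sema3d interaction coefficient of each factor (log2, with its 95% interval from the derived error; 24 guts), where the Zeb2 interval lies above 0 and the others span it. Right, the median log2 value of all genes at a level of at least 50 by decile of exon length for the interaction coefficient and for the change in double null, Ret null and Sema3d null guts; the interaction medians run from -0.16 in the shortest to 0.15 in the longest decile.

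Genes that overlap the factors were read next, since the libraries were stranded but the sources used here do not say whether strand was used in counting. Hand2os1, a noncoding gene on the strand opposite Hand2 that overlaps it, fell with Hand2 and by more on the log2 scale. Its fitted level was 152 normalised counts in Ret null and 236 in wildtype guts, a log2 change of -0.63 ± 0.10 (adjusted p 1.68e-08 in the authors' deposited table). In double null guts its change was -0.41 ± 0.10 (adjusted p 0.00293 in the authors' deposited table). Zeb2os, opposite Zeb2, had 32.9 normalised counts in Ret null and 34.2 in wildtype guts and was not called (adjusted p 1.000 in the authors' deposited table). Inppl1, which overlaps Phox2a on the other strand, had 2431 normalised counts in Ret null and 2341 in wildtype guts and was not called (adjusted p 0.944 in the authors' deposited table). The overlapping genes were chosen by position, after the data had been seen.

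Most other listed transcription factors of enteric crest and neurons fell in the same comparison. Of 20 listed genes, 13 fell and 0 rose in Ret null guts, against the 2.27% called lower over all genes, and the median over its 19 bounded fits was -2.16 on the log2 scale. Insm1, a zinc-finger factor of newborn neurons, had 15.9 normalised counts in Ret null and 164 in wildtype guts (9.69% remaining), Myt1 changed by -3.54 ± 0.23 on the log2 scale in the authors' deposited table, and Sox8 kept 22.4%. In double null guts 14 of the 20 fell and 0 rose, where 1.87% of all genes were called lower and 0.231% higher. In Sema3d null guts 0 of 20 were called, with 0 at an unadjusted p under 0.05. Of all genes 0.0404% were called there, and 4.53% had such a p. Tbx3, Hoxb5, Ebf3 and Etv1 fell by less, keeping 54.8, 75.1, 69.0 and 78.6% in Ret null guts. Isl1, Ebf1, Gata3 and Sox2 were not called there and stood at 113, 112, 101 and 85.1%. Both of these groups are named after their values were seen.

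No gut mesenchyme factor passed the test. Of 18 listed genes 0 were called in Ret null, double null or Sema3d null guts by the authors' likelihood-ratio test in DESeq, with 4, 3 and 1 at an unadjusted p under 0.05, where all genes gave 8.43, 6.71 and 4.53%. The list's median log2 change in Ret null guts was 0.09, with values from -0.31 to 0.31. Over all genes 2.27% were called lower and 0.386% higher in Ret null guts, and 1.87% and 0.231% in double null guts. In Sema3d null guts 0.0404% of all genes were called in either direction. Meis1, Barx1, Foxf1, Hand1 and Tcf21, the 5 with the smallest p, had log2 changes of 0.14 ± 0.04, 0.31 ± 0.11, 0.17 ± 0.07, 0.30 ± 0.13 and 0.10 ± 0.05 in Ret null guts, from the authors' deposited table. Hand1, the paralog of Hand2, had 903 normalised counts in Ret null and 732 in wildtype guts (adjusted p 0.325 in the authors' deposited table). Zeb1, the paralog of Zeb2, had 1087 normalised counts in Ret null and 1150 in wildtype guts, a log2 change of -0.08 ± 0.05 (adjusted p 0.835 in the authors' deposited table).

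Among all paralogs of the 8 factors, 3 of 10 measured genes fell in Ret null guts and 0 rose, and the same counts held in double null guts, beside 2.27% of all genes called lower in Ret null guts and 1.87% in double null guts. Sox8 and Tlx3 were among the 3 in Ret null guts. Sox9, a SoxE factor like Sox10 and Sox8, had 580 normalised counts in Ret null and 562 in wildtype guts (adjusted p 1.000 in the authors' deposited table). Tlx3 fell to 0.315 normalised counts in Ret null guts, against 11.1 in wildtype guts (adjusted p 1.41e-08 in the authors' deposited table), and Tlx1 stood at 118 in Ret null and 112 in wildtype guts. Tfap2c changed by -0.77 ± 0.37 in Ret null guts (adjusted p 0.509 in the authors' deposited table).

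Of 10 genes known as targets of these factors, 7 fell in Ret null guts and 8 in double null guts, the targeted Ret among them, and 0 rose in either. Over all genes 2.27% were called lower in Ret null guts and 1.87% in double null guts. Dbh, the noradrenaline-making enzyme, kept 1.29% in Ret null guts, close to Tlx2. Cdh19, a crest and glial cadherin, kept 11.7%. The Sox10 targets Ednrb, the endothelin receptor, and Erbb3, the neuregulin receptor, kept 44.3% and 55.5%.

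**Figure D4:**
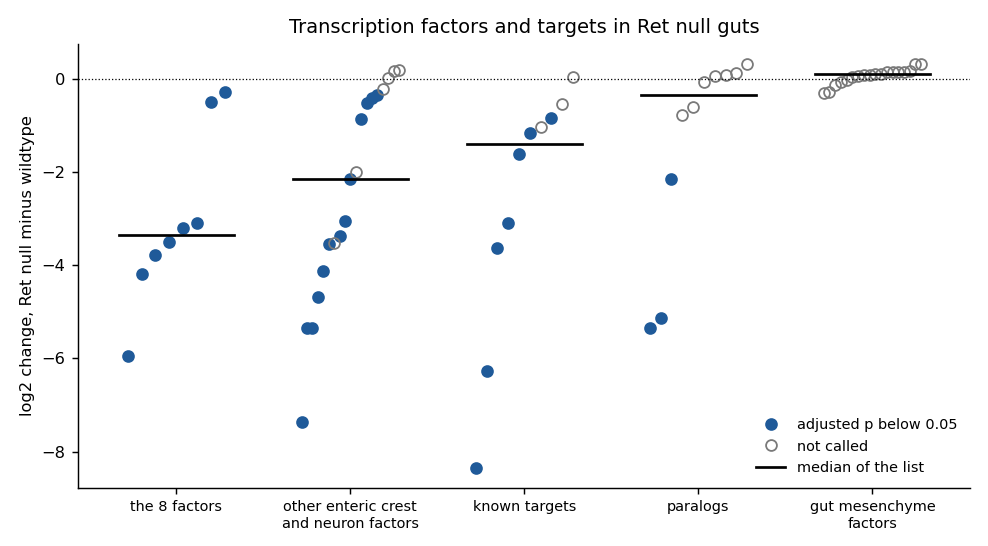
Log2 change in Ret null against wildtype guts (6 guts each) for the 8 factors, other enteric crest and neuron factors, known targets, paralogs and gut mesenchyme factors; each point is a gene with a bounded fit, filled where the adjusted p was below 0.05, and black lines mark list medians. The 2 factors highest among the 8 are Hand2 and Zeb2. No gut mesenchyme factor was called, and their changes run from -0.31 to 0.31 with a median of 0.09. That range holds the Hand2 change of -0.28 ± 0.06, which was called.

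The genes whose pattern lay nearest were sought by the Euclidean distance over the log2 differences of the 3 null genotypes from wildtype, among 12181 genes with a wildtype level of at least 50 in the 24-gut fit. Among those nearest to Sox10 were Myt1 (distance 0.249) and Tnr (0.262). Nearest to Tlx2 were Dbh (0.406), the neuronal RNA-binding protein Elavl3 (0.522) and the neuronal tubulin Tubb3 (0.623). Nearest to Hand2 were Proser2 (0.0267), Hist1h4i (0.0428) and Rnf165 (0.0578). The distances rest on fits to 4 groups of guts and say nothing of shared control.

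Sex had no deposited p-value and is described only. In the 24-gut fit the male minus female log2 coefficient of Sox10 was -0.01, of Hand2 -0.00 and of Zeb2 0.02. It was 0.20 for Foxd3, 0.09 for Tlx2, -0.02 for Phox2a, -0.27 for Tfap2a and -0.53 for Tfap2b, the lowest-expressed of the 8. Markers of neighbouring ganglia that could add crest RNA were read as well. The 3 measured sensory ganglion markers summed to 15.99 normalised counts in Ret null and 17.9 in wildtype guts. The authors' deposited table called 0 of 3, where 2.27% of all genes were called lower and 0.386% higher. Of the sympathetic and adrenal markers, Th and Chgb fell and Chga, Npy and Pnmt were not called in Ret null guts. Th had 6.67 normalised counts in Ret null and 20.5 in wildtype guts, and Pnmt, the adrenaline-making enzyme of the adrenal medulla, 0.167 in Ret null and 0.175 in wildtype guts. The part of such tissue in the remaining Sox10 and Phox2a RNA was not tested.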

How the data were processed

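Poly-A RNA of 24 guts was sequenced as stranded libraries with paired 100-base reads, per the labels' protocols. The submitters' processing notes name FastQC 0.11.5, Trimmomatic 0.36, STAR, RSEM 1.2.31, DESeq 1.24.0 and the GRCm38 (mm10) build, without roles. The authors deposited 4 tables of model fits with no values per gut: log2 coefficients, model deviances (a score of fit, as are the interaction table's coefficients, which include a few unbounded values) and p-values of the term the reduced model lacks, with sex as covariate, per the file headers. The log base is not named in the headers and was taken as 2: the fitted levels of wildtype then sum to 11551250 to 11981477 normalised counts per table, against 434625815 to 458132224 with the natural base. One table has the headers of gene name and gene type exchanged, so columns were read by content.

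The drop in deviance gave, by its chi-square tail, the deposited p-values within 4.91e-09, so p-values listed as 0 were recomputed from it and adjusted by Benjamini-Hochberg over each whole table. The derived error is the absolute coefficient over the root of that drop, and 95% intervals are 1.96 errors wide on each side. Its arithmetic was tested on simulated data with smaller changes than those of the crest-only and AP-2 factors in guts without Ret. The width of the intervals of these factors was therefore not tested. Levels are sex averages. Coefficients beyond 15 were read as unbounded and left out of medians and folds. Exon lengths and positions come from GENCODE M21 on GRCm38, promoters from RefSeq, which matched 6 of 8 factors. Python 3.11.15, pandas 2.3.3 and SciPy 1.17.1 were used. The members and lists were chosen with earlier results of these data known. Named genes are the 8 factors, Ret and Sema3d, up to 5 per list by smallest p in the Ret null table and 3 nearest patterns each for Sox10, Tlx2 and Hand2; a few genes chosen this way are not reported here. No count test could be run on fits.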

Additional observations from a re-analysis of the deposited data

How the results depend on the processing

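Each log2 change or interaction coefficient was recomputed with the median change taken off, with adjustment over genes at a level of at least 50, with a threshold of 0.01 (not for the interaction), from the 24-gut fit (not for the interaction, and without a test) and, chosen after seeing the data, with the median of the exon length decile taken off. In the 112 values with a test no call was gained or lost, and in these and the 24 without one no called value changed sign. The level filter left out Tfap2a and Tfap2b, so 6 of 6 factors were lower without Ret alone and 5 of 6 without both genes under it. Under the length correction the interaction adjusted p of Zeb2 was 0.952, and over its other alternatives it ran from 0.109 to 0.179. The median shares of Hand2 and Zeb2 exceeded those of the crest-only factors by 70.0 percentage points without Ret alone and 78.2 without both genes, and by 68.3 and 76.4 with the AP-2 factors counted as crest-only. No paired analysis was possible because the tables hold no values per gut, and leaving out single guts was not run for the same reason. Fitted levels under about 5 normalised counts limit what can be said of differences between Ret null and double null guts. Tlx2, Tfap2a and Tfap2b had such levels without Ret, and Phox2a had one in double null guts.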
